A study of Mus musculus with 19 samples.

Results

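The complement genes described here are C1qa, C1qb, C1qc, C3, Cfb, Cfp, C5ar1 and C3ar1, a named set of 8 genes chosen by symbol, all 8 of which have a row among the 50854 genes of the count table. The 8 genes and the lists used below were chosen with earlier results of these data known. Counts of called genes set beside the share over all genes are therefore descriptions. They were followed in 19 bulk RNA-seq libraries of cells sorted from the bone marrow of female REP mice aged 8 to 12 weeks, a reporter strain in which mRuby2 marks cells expressing the chemokine receptor CCR2 and Clover marks cells expressing CCR1. For inflammatory monocytes sorted from resting mice for culture, the paper gives the gate CD11b+ Ly6C++ Ly6G- SiglecF-. The sources used here do not spell out the gate of these libraries. CCR2+ve monocytes gave 4 resting and 4 inflamed libraries, CCR1/2+ve monocytes (CCR1 and CCR2 together) gave 4 resting and 3 inflamed ones, and 4 further libraries are labelled inflamed CCR1. Inflamed mice carried osmotic pumps that released IL-3, IL-6, GM-CSF and IFN-α for 7 days. The labels call the other mice resting, and the sources used here do not say whether those particular mice carried a vehicle pump. Nothing in the labels says that the replicates came from separate animals, so the p-values below measure the spread between these libraries, which may be technical.

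Complement is a cascade of plasma proteins that marks particles for uptake and attracts phagocytes. C1q, built from the chains encoded by C1qa, C1qb and C1qc, starts the classical pathway, and C3 is the component on which all activation routes converge. The alternative pathway amplifies C3 cleavage through factor B (Cfb) and is stabilised by properdin (Cfp), and the small fragments C3a and C5a signal through the receptors encoded by C3ar1 and C5ar1. Most plasma complement is made by the liver, but macrophages are a main source of C1q, and myeloid cells also express properdin and both receptors.

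The libraries held 22268658 to 30502009 reads on genes (median 23706580). Levels are given in CPM, read counts brought to a common library size with TMM factors over the 19 libraries. The 15 libraries of the CCR2+ve and CCR1/2+ve groups had summed levels of 30852 to 55951 CPM for 10 monocyte markers and of 458 to 2569 CPM for 10 markers of mature neutrophils. Lyz2 made up most of the monocyte sums in these groups, at means of 27582 to 36396 CPM. Spi1 averaged 735 and 564 CPM in resting CCR2+ve and CCR1/2+ve libraries, and 38.1 and 33.9 CPM in the inflamed ones. Irf8 went from 485 and 513 to 87.3 and 79.8 CPM, while Csf1r went from 837 and 407 to 1504 and 1080 CPM. The labels do not say whether resting and inflamed libraries were prepared together. The 4 libraries labelled inflamed CCR1 went against their monocyte label, with 7815 to 12465 CPM for the monocyte list and 93596 to 137710 CPM for the neutrophil list. In these 4 libraries Ngp, a neutrophil granule gene, averaged 86027 CPM, Csf1r 17.7 CPM, Ccr2 5.82 CPM and Ccr1 itself 38 CPM, below the 75.1 CPM of Ccr1 in resting CCR2+ve monocytes. Not every listed gene followed. Mmp8 made up most of the neutrophil sum in the monocyte groups, at means of 451 to 1606 CPM, but averaged 9.1 CPM here. On the monocyte list Ly6c2 and Itgam averaged 1421 and 91.8 CPM, against lowest monocyte group means of 1855 and 92.2 CPM. Of the markers of other cell types, summed levels in the monocyte libraries were 18.3 to 40.3 CPM for 6 B cell, 3.19 to 80.8 CPM for 6 T and NK cell and 12.3 to 27.3 CPM for 6 stromal and vascular genes, and higher for 8 dendritic cell genes (17.1 to 595 CPM) and 6 erythroid genes (1.81 to 231 CPM). The T and NK cell list reached 1361 to 1707 CPM in the libraries labelled inflamed CCR1, with 1 of its 6 genes above 10 CPM. Those 4 libraries are reported apart, as the libraries labelled inflamed CCR1.

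The genes fell into 3 patterns in the monocyte groups. The C1q chains were higher in CCR1/2+ve than in CCR2+ve monocytes at rest, by 3.31- to 5.7-fold. Their response to inflammation differed between the populations with all libraries. That difference was called in only 9, 6 and 6 of 15 fits that left out 1 library, for C1qa, C1qb and C1qc. C3, Cfb and Cfp were higher in inflamed than in resting monocytes of both populations, although the C3 difference stayed under 2-fold. C3ar1 was 4.61-fold lower in CCR1/2+ve monocytes at rest and 11.8- and 45.6-fold higher after inflammation, while C5ar1 was the only one of the 8 genes called between the inflamed populations. A gene counted as called where its adjusted p was below 0.05 and it differed by at least 2-fold in either direction, a log2 fold change of 1.

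**Figure D1:**
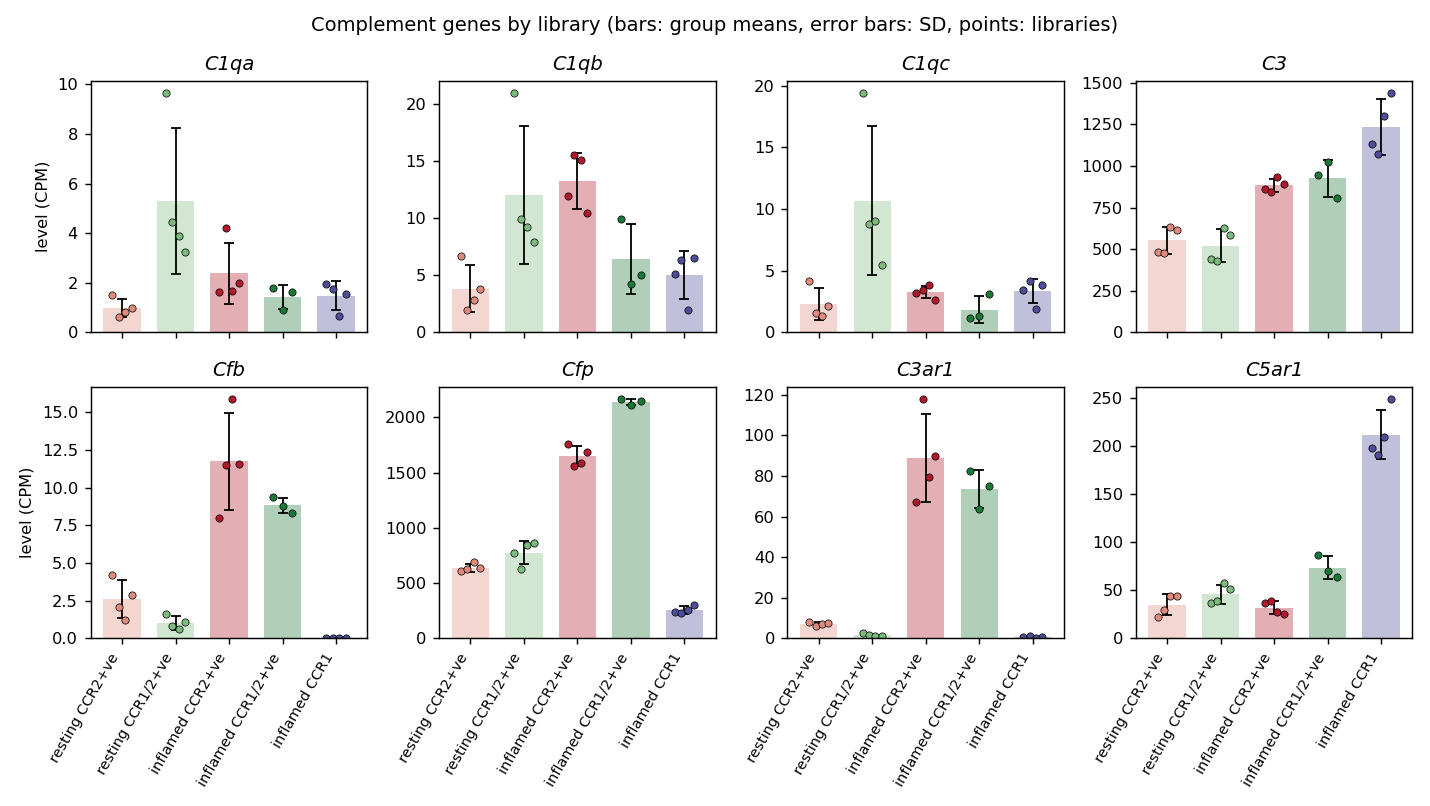
Level of each complement gene in CPM (y axis, linear, each panel with its own scale) by group (x axis), with bars for group means, error bars for the SD and 1 point per library. C1qa, C1qb and C1qc stand highest or second highest in resting CCR1/2+ve libraries, C3, Cfb, Cfp and C3ar1 stand higher in both inflamed monocyte groups than in both resting groups, and C5ar1 is highest in the libraries labelled inflamed CCR1.

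C1qa, C1qb and C1qc lie side by side on the minus strand of chromosome 4 (GRCm38, GENCODE M21), at 136895917 to 136898803, 136880129 to 136886187 and 136889804 to 136893065, each with 3 exons and with no exon shared with another gene. Of the 8 genes, 6 had a promoter in the RefSeq table (GRCm38.p6), of which the 250 bases before the RefSeq start were read. By the GENCODE positions more than a small part of the C1qc and C5ar1 windows lies inside the gene, and the C3ar1 window reaches into it by a few bases. The C1qc promoter is shown because it was the only C1q promoter read that held 1 of the 5 motifs searched on both strands, which were PU.1 (gaggaag), C/EBP (ttgcnnaa), GAS (ttcnnngaa), kappa B (ggga, any 2 bases, ttcc) and the interferon-stimulated response element (tttc, any 2 bases, tttc). Capitals mark the PU.1 letters, read on the opposite strand, with the first base 194 bases before the start. Of 32851 promoters in the table, 10.6% held these letters. The C1qb promoter held none of the 5 motifs.
C1qc promoter, chr4:136892915-136893164, minus strand: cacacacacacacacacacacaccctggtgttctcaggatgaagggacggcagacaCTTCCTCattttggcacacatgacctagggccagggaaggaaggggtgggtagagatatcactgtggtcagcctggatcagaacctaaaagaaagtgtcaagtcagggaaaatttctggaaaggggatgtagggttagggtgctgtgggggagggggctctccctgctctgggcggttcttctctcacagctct

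At rest, C1qa stood at 9.65, 4.46, 3.88 and 3.24 CPM in CCR1/2+ve replicates 1 to 4 and at 1.49, 0.642, 0.82 and 0.997 CPM in CCR2+ve replicates 1 to 4. All CCR1/2+ve libraries lay above all CCR2+ve libraries, and replicate 1 was the highest of both groups. The log2 fold change was 2.51 (SE 0.39, adjusted p = 0.00092), or 5.7-fold. C1qc gave 19.4, 8.77, 9.05 and 5.45 CPM in resting CCR1/2+ve libraries against 4.14, 1.61, 1.33 and 2.12 CPM in resting CCR2+ve libraries, again without overlap, with a log2 fold change of 2.30 (SE 0.44, adjusted p = 0.00406).

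C1qb stood at 21, 9.97, 9.21 and 7.92 CPM in resting CCR1/2+ve libraries and at 6.75, 2, 2.85 and 3.82 CPM in resting CCR2+ve libraries. Its groups did not overlap either, and its log2 fold change was 1.73 (SE 0.40, adjusted p = 0.012). For each of the 3 chains the exact two-sided permutation test of 4 against 4 libraries gave p = 0.0286, the smallest this unpaired test allows. It leaves aside the pairing of the resting libraries by replicate number, which was inferred from these data and is not given by the labels. With the replicate number as a block in the edgeR fit, log2 fold changes were 2.44 for C1qa, 1.74 for C1qb and 2.27 for C1qc. Their adjusted p in that fit were 1.80e-06, 2.93e-06 and 6.10e-07. With C3ar1, 4 of the 8 genes were called at rest, beside 4.25% of the 18652 genes tested. The median log2 fold change of the 8 genes was 0.41, against 0.03 over all genes tested. Without resting CCR1/2+ve replicate 1, whose C1q levels were the highest, 5 of the 8 genes were called, and all 3 chains kept their call when any of the 8 libraries was left out (log2 fold changes of 2.04 to 2.81 for C1qa, 1.30 to 2.17 for C1qb and 1.82 to 2.77 for C1qc). C1qb lost its call when no filter on low counts was applied (adjusted p = 0.0656).

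With inflammation C1qa and C1qb rose in CCR2+ve monocytes, while C1qa and C1qc fell in CCR1/2+ve monocytes. In inflamed CCR2+ve replicates 1 to 4, C1qb reached 12, 15.6, 15.1 and 10.5 CPM, all above the 4 resting CCR2+ve libraries (log2 fold change 1.71, SE 0.30, adjusted p = 0.000192). C1qa reached 1.64, 4.23, 1.69 and 1.98 CPM, also above every resting CCR2+ve library (1.19, SE 0.38, adjusted p = 0.0179), but this call rested on replicate 2, without which the log2 fold change was 0.79 (adjusted p = 0.102). C1qc, at 3.19, 3.44, 3.87 and 2.62 CPM, overlapped its resting values and was not called (0.44, SE 0.33, adjusted p = 0.306). Of the 8 genes, 5 were called in this comparison, all higher, where 28.6% of all genes tested were called, 9.37% as higher and 19.2% as lower.

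Inflamed CCR1/2+ve libraries, which are replicates 2 to 4, held 1.79, 0.9 and 1.62 CPM of C1qa and 1.16, 1.3 and 3.12 CPM of C1qc. Both genes lay below all 4 resting CCR1/2+ve libraries, with log2 fold changes of -2.02 for C1qa (SE 0.44, adjusted p = 0.00298) and -2.65 for C1qc (SE 0.54, adjusted p = 0.00339). C1qb, at 9.94, 4.25 and 5.05 CPM, overlapped its resting values and was not called (-1.06, SE 0.43, adjusted p = 0.0724). It was called without inflamed CCR1/2+ve replicate 2 (adjusted p = 0.0123) or resting CCR1/2+ve replicate 4 (-1.23, adjusted p = 0.0499), with library sizes alone (-1.26, adjusted p = 0.033) and with the filterByExpr filter (-1.06, adjusted p = 0.0459). In this comparison 5 of the 8 genes were called, 3 higher and 2 lower, beside 28.5% of all genes tested, 9.16% higher and 19.4% lower. The exact permutation test of 3 against 4 libraries cannot go below 0.0571, which both C1qa and C1qc reached. The comparisons with resting libraries share those libraries with the comparison of both populations at rest.

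The difference between the responses was tested as an interaction of population and inflammation in 1 fit of 15 libraries. The response of CCR1/2+ve monocytes minus that of CCR2+ve monocytes was -3.25 for C1qa (SE 0.60, adjusted p = 0.0273), -2.81 for C1qb (SE 0.56, adjusted p = 0.0455) and -3.12 for C1qc (SE 0.62, adjusted p = 0.0447) on the log2 scale. With C3ar1, 4 of the 8 genes were called, beside 0.214% of all genes tested. The direction held in all 15 fits that left out 1 library, but the calls did not. None of the 8 genes was called without resting CCR1/2+ve replicate 2, resting CCR2+ve replicate 3, inflamed CCR1/2+ve replicate 3 or inflamed CCR2+ve replicate 1, although 5, 6, 5 and 5 of the 8 had an unadjusted p below 0.05 in these edgeR fits. Over all genes tested, the 40 calls went to 5, 8, 0 and 5 in these fits, with 1827 genes at an unadjusted p below 0.05 in the fit with 0 calls. A single gene was called without resting CCR2+ve replicate 4 or inflamed CCR2+ve replicate 2, and 2 without resting CCR1/2+ve replicate 3 or inflamed CCR2+ve replicate 3. Adjusted p over these fits ran from 0.021 to 0.133 for C1qa and from 0.0224 to 0.162 for C1qb and C1qc. DESeq2 called the same number of genes, 4, in the fit of all 15 libraries. Between the inflamed populations no C1q chain was called (log2 fold changes of -0.74, -1.08 and -0.82, adjusted p of 0.62, 0.187 and 0.522 for C1qa, C1qb and C1qc).

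**Figure D2:**
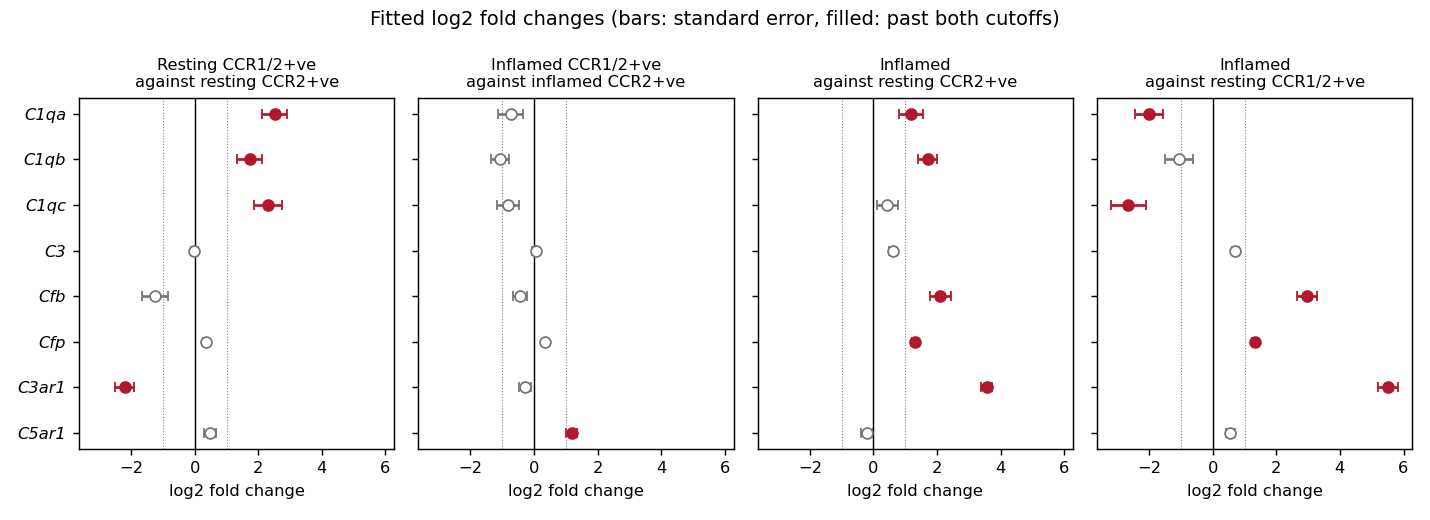
Log2 fold change (x axis) of the 8 genes (y axis) in 4 comparisons of monocyte groups, with bars for the standard error, filled points for called genes and dotted lines at -1 and 1. The C1q chains lie right of 0 at rest and left of 0 between the inflamed populations, and C3ar1 lies far right in both comparisons with inflammation.

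The order of the groups differed between the chains. C1qa ran from resting CCR1/2+ve monocytes (5.31 ± 2.94 CPM, SD, n = 4) through inflamed CCR2+ve monocytes (2.39 ± 1.24, n = 4), the libraries labelled inflamed CCR1 (1.48 ± 0.579, n = 4) and inflamed CCR1/2+ve monocytes (1.44 ± 0.475, n = 3) to resting CCR2+ve monocytes (0.987 ± 0.364, n = 4). Each neighbouring pair in this order overlapped. C1qb was highest in inflamed CCR2+ve monocytes (13.3 ± 2.44) and lowest in resting CCR2+ve monocytes (3.86 ± 2.07), with overlap between all neighbours. C1qc in resting CCR1/2+ve monocytes (10.7 ± 6.04) lay above all other libraries, while the other 4 groups averaged 1.86 to 3.35 CPM and overlapped their neighbours.

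Because the chains assemble into 1 protein, their shares of the summed CPM per kb of exon were followed in each library. C1qb made up 49.9% to 55.1% of the C1q level in resting CCR1/2+ve libraries, 55.9% to 64% in resting CCR2+ve libraries and 71% to 79.3% in inflamed CCR2+ve libraries. Per length these 3 groups did not overlap. On plain counts the resting groups did, at 41.6% to 47.7% in CCR1/2+ve and 47.1% to 57% in CCR2+ve libraries, while inflamed CCR2+ve libraries stayed above both at 67% to 73.1%. The share of C1qb in inflamed CCR1/2+ve libraries covered 59.4% to 79.7%. C1qc fell behind C1qb in inflamed CCR2+ve monocytes, with a C1qc to C1qb ratio of 0.14 ± 0.0107 (SD, n = 4) against 0.343 ± 0.0806 (n = 4) at rest, and the ratio was 0.49 ± 0.0718 (n = 4) in resting CCR1/2+ve monocytes. The 4 libraries labelled inflamed CCR1 had a C1qb share of 52.9% to 63.3%. These are descriptions, since no test of the shares was run.

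**Figure D3:**
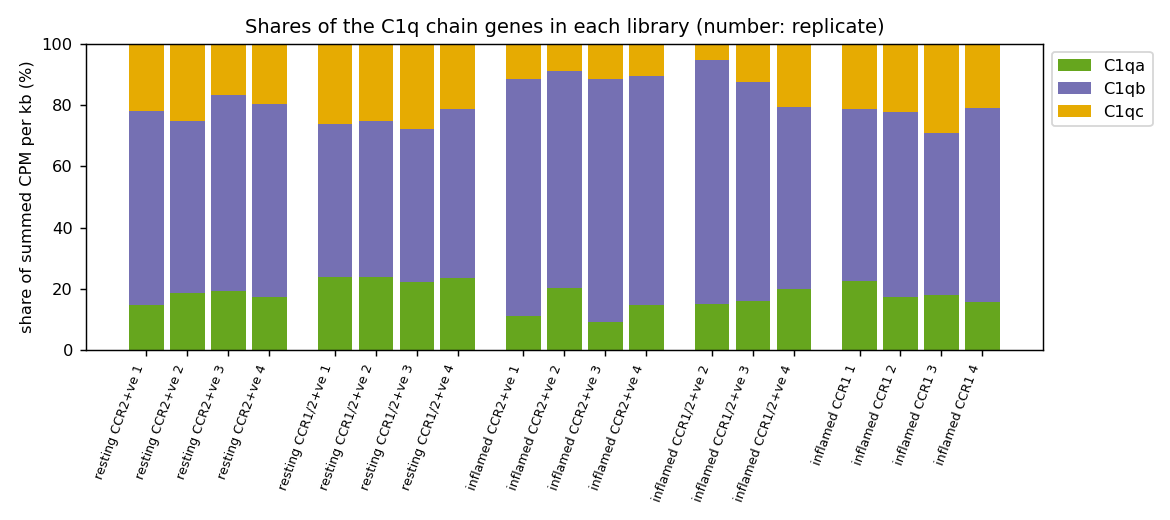
Share of C1qa, C1qb and C1qc in their summed CPM per kb of exon (y axis, %) for each of the 19 libraries (x axis, group and replicate number). The C1qb section widens from 49.9% to 55.1% in resting CCR1/2+ve libraries to 71% to 79.3% in inflamed CCR2+ve libraries.

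C1q is a product of tissue macrophages, so 14 macrophage markers were set beside it. Their summed level was 281 to 366 CPM in resting CCR1/2+ve libraries and 386 to 534 CPM in resting CCR2+ve libraries. Adgre1, the gene of F4/80, which monocytes also express, made up 150.3 to 223 and 249 to 352 CPM of these sums, and the other 13 genes overlapped, at 115 to 195 CPM in CCR1/2+ve and 137 to 186 CPM in CCR2+ve libraries. Within the list, Vcam1, Slc40a1 and Cd5l were called higher in resting CCR1/2+ve monocytes, and Axl, Maf and Siglec1 were called lower. Vcam1 stood at 47.2, 26.4, 17.2 and 14 CPM in resting CCR1/2+ve replicates 1 to 4, beside a summed C1q level of 50.02, 23.2, 22.1 and 16.6 CPM, and at 0.713 to 3.28 CPM in resting CCR2+ve libraries. Slc40a1 stood at 31.8, 16.7, 8.27 and 10.5 CPM and Cd5l at 3.81, 2.2, 1.96 and 2.77 CPM in the same resting CCR1/2+ve libraries. Replicate 1 was the highest for all 3 genes, and only Vcam1 of the 3 had the replicates in the order of C1q. Timd4, on the same list but not called, also had that order in resting CCR1/2+ve libraries, at 1.15, 0.673, 0.196 and 0.0308 CPM. Adgre1 did not, at 171, 150.3, 223 and 190.0 CPM in the resting CCR1/2+ve libraries. The T and NK cell list was also higher there, at 30.02 to 80.8 CPM against 7.46 to 13.4 CPM in resting CCR2+ve libraries. In the resting CCR1/2+ve libraries 1 of its 6 genes averaged at least 10 CPM and the other 5 under 1 CPM. Fcna, a ficolin of macrophages, averaged 7.97 CPM in resting CCR1/2+ve monocytes against 1.37 CPM in resting CCR2+ve monocytes. It stood at 13.3, 7.34, 6.62 and 4.59 CPM in resting CCR1/2+ve replicates 1 to 4, in the order of C1q. Inflamed CCR2+ve libraries held 15.1 to 23.2 CPM of C1q with 0.62 to 1.63 CPM of Vcam1. Those labelled inflamed CCR1 held 4.57 to 12.3 CPM of C1q with 423 to 509 CPM of Vcam1 and 459.8 to 654 CPM of Slc40a1. In bulk libraries fewer cells of a type and less RNA per cell cannot be told apart, and the part of these cell types in the C1q levels was not tested.

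**Figure D4:**
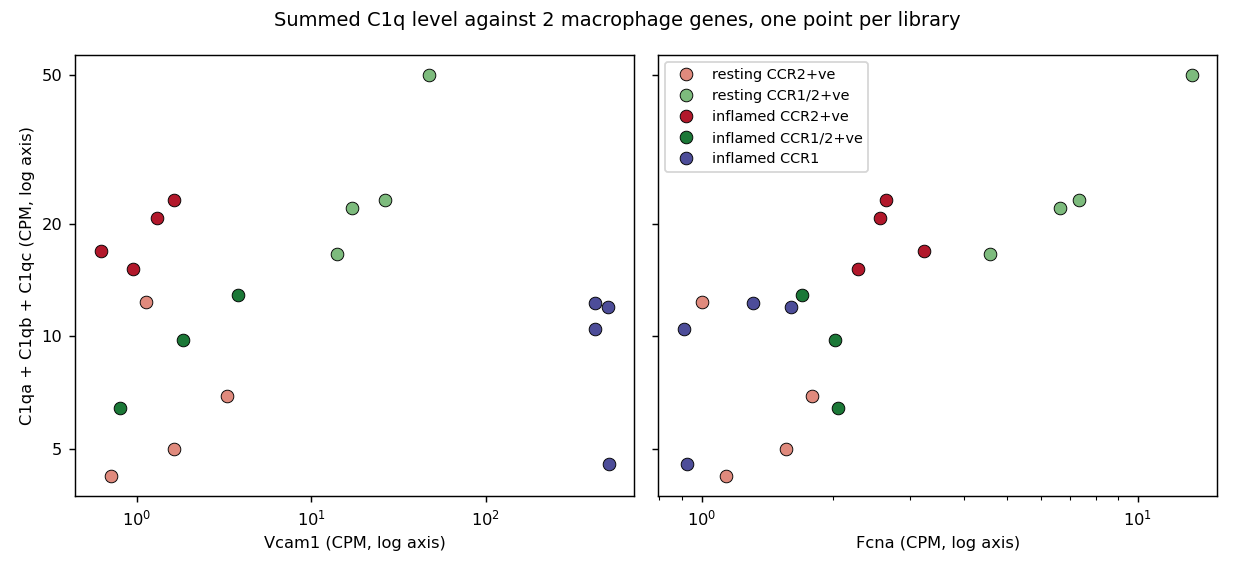
Summed level of C1qa, C1qb and C1qc (y axis, CPM, log axis) against Vcam1 (left) and Fcna (right; x axes, CPM, log axes), with 1 point per library and colours for the 5 groups. Resting CCR1/2+ve libraries lie highest on both genes among the monocyte groups, inflamed CCR2+ve libraries reach 15.1 to 23.2 CPM of C1q at 0.62 to 1.63 CPM of Vcam1, and the libraries labelled inflamed CCR1 lie apart at 423 to 509 CPM of Vcam1.

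The alternative pathway genes were C3, Cfb and Cfp. Per kb of exon, properdin stood at 368 CPM in resting CCR2+ve monocytes and 1234 CPM in inflamed CCR1/2+ve monocytes, against 108 and 179.8 CPM per kb of C3. C3 spans 57203970 to 57228136 and Cfb 34856374 to 34862518 on chromosome 17, and Cfp 20925454 to 20931555 on chromosome X, all on the minus strand. Of the exon bases of Cfb, 79.5% are shared on the same strand with the read-through gene Gm20547, to which the table gives 0 reads. The Cfb counts therefore rest on its remaining exon bases, and its level is not compared with that of other genes. The C3 promoter is shown as that of the central component and as the only promoter read that held the C/EBP letters, which 9.56% of promoters hold. They are in capitals, with the first base 45 bases before the start.
C3 promoter, chr17:57228137-57228386, minus strand: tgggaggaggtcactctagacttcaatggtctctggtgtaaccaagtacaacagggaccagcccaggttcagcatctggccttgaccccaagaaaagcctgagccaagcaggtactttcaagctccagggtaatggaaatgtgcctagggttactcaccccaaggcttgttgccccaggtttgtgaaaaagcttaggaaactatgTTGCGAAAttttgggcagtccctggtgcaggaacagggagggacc

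Properdin was called higher in inflammation in both populations. Cfp stood at 606, 623, 688 and 636 CPM in resting CCR2+ve libraries and at 1762, 1559, 1588 and 1690 CPM in inflamed CCR2+ve libraries (log2 fold change 1.30, SE 0.09, adjusted p = 2.04e-08). In CCR1/2+ve monocytes it stood at 769, 627, 842 and 860.2 CPM at rest and at 2165, 2113 and 2146 CPM when inflamed (1.34, SE 0.09, adjusted p = 2.69e-07). Inflamed and resting libraries were widely apart in both populations, and the inflamed CCR1/2+ve libraries lay above all inflamed CCR2+ve libraries. That last difference, 0.36 on the log2 scale, was not called (SE 0.09, adjusted p = 0.184). At rest the difference of 0.35 passed the adjusted p alone (0.0164), as did 16.9% of all genes tested, with overlapping groups, and the interaction was 0.00 (SE 0.13).

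Factor B was also called higher with inflammation in both populations. Cfb held 4.18, 2.07, 1.21 and 2.87 CPM in resting CCR2+ve libraries and 7.97, 11.5, 15.9 and 11.6 CPM in inflamed CCR2+ve libraries (2.11, SE 0.32, adjusted p = 5.30e-05). In CCR1/2+ve monocytes it held 1.64, 0.825, 0.588 and 1.05 CPM at rest and 9.35, 8.8 and 8.34 CPM when inflamed (2.96, SE 0.31, adjusted p = 1.19e-05). No inflamed library overlapped a resting one, and the resting populations overlapped each other. At rest Cfb was lower in CCR1/2+ve monocytes by a log2 fold change of -1.25 that missed the threshold (SE 0.41, adjusted p = 0.0578). With the replicate number as a block, which pairs the resting libraries, it was called (-1.23, adjusted p = 0.00235), as it was without resting CCR1/2+ve replicate 1 (-1.57, adjusted p = 0.029) or resting CCR2+ve replicate 3 (-1.48, adjusted p = 0.0276) and with DESeq2 (adjusted p = 0.0191).

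C3 did not separate the populations. It stood at 485, 478, 634 and 614 CPM in resting CCR2+ve libraries and at 442, 431, 626 and 584 CPM in resting CCR1/2+ve libraries, with replicates 3 and 4 higher than 1 and 2 in both. Inflamed CCR2+ve libraries held 863, 845, 934 and 894 CPM, and inflamed CCR1/2+ve libraries 943, 1026 and 805 CPM. The inflamed libraries lay above all resting ones, with log2 fold changes of 0.61 (SE 0.11, adjusted p = 0.000231) in CCR2+ve and 0.71 (SE 0.12, adjusted p = 0.000491) in CCR1/2+ve monocytes, under the fold cutoff. Between the populations the differences were -0.01 at rest and 0.05 in inflammation (SE 0.12 and 0.11, adjusted p of 0.969 and 0.939). Over all genes tested, the median log2 fold change with inflammation was -0.10 for CCR2+ve and -0.25 for CCR1/2+ve cells, and -0.17 and -0.46 with library sizes alone, so these rises stand against a median slightly below 0. Erythroid markers, a list of 6, fell from summed levels of 48.4 to 231 CPM in resting libraries to 1.81 to 4.4 CPM in inflamed monocyte libraries, and their part in these differences was not tested.

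The receptor genes C3ar1 and C5ar1 encode receptors of the fragments C3a and C5a. C3ar1 lies at 122847138 to 122856161 on chromosome 6 and C5ar1 at 16246743 to 16259540 on chromosome 7, both on the minus strand. Their promoters are shown because these related receptors were called in different comparisons of the monocyte groups. Neither held any of the 5 motifs, which says only that these letters are not in this window, so both are in lower case throughout. By the GENCODE positions most of the C5ar1 window lies inside the gene. The interferon-stimulated response element was found in 2.98% of promoters, GAS in 7.02% and kappa B in 1.21%.
C3ar1 promoter, chr6:122856158-122856407, minus strand: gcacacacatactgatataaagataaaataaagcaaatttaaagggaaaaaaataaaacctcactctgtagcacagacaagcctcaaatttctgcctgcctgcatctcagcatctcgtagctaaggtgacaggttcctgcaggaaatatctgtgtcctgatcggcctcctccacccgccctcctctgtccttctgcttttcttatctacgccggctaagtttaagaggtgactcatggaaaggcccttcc
C5ar1 promoter, chr7:16259339-16259588, minus strand: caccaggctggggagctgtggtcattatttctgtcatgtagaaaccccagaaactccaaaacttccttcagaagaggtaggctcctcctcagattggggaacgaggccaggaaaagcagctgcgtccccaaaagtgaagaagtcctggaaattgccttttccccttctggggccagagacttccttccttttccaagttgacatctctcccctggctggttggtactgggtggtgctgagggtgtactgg

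C3ar1, the C3a receptor gene, stood at 7.96, 5.99, 6.83 and 7.73 CPM in resting CCR2+ve libraries and at 2.49, 1.38, 1.02 and 0.924 CPM in resting CCR1/2+ve libraries. The populations were separate, and the log2 fold change was -2.20 (SE 0.30, adjusted p = 0.00037), or -2.28 with the replicate block (adjusted p = 2.69e-06). Inflamed CCR2+ve libraries held 67.3, 118, 79.7 and 89.8 CPM (3.56 above rest, SE 0.17, adjusted p = 2.89e-10). Inflamed CCR1/2+ve libraries held 82.3, 63.5 and 75 CPM (5.51 above rest, SE 0.32, adjusted p = 7.42e-07). The inflamed populations overlapped, with a difference of -0.29 (SE 0.18, adjusted p = 0.669). The interaction of 1.91 (SE 0.33, adjusted p = 0.0273) was called in 11 of 15 fits that left out 1 library, with adjusted p from 0.00211 to 0.0857. Dendritic cell markers, a list of 8, were also lower in CCR1/2+ve libraries, at 34.5 to 116 CPM against 218 to 595 CPM at rest and at 17.1 to 77.8 CPM against 108 to 558 CPM in inflammation, and their part in the C3ar1 and Cfb levels was not tested.

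C5ar1, the C5a receptor gene, stood at 22.6, 29.5, 43.8 and 44 CPM in resting CCR2+ve libraries and at 36.8, 38.5, 57 and 51.5 CPM in resting CCR1/2+ve libraries. The groups overlapped as wholes, while CCR1/2+ve lay above CCR2+ve in 4 of 4 same-numbered pairs. The log2 fold change was 0.47 without pairing (SE 0.19, adjusted p = 0.124) and 0.50 with the replicate block that pairs the resting libraries (adjusted p = 0.000408), under the fold cutoff in both. Inflamed CCR2+ve libraries held 36.5, 38.6, 27.1 and 25.1 CPM, while inflamed CCR1/2+ve libraries held 86.7, 69.7 and 63.7 CPM. All CCR1/2+ve libraries lay above all CCR2+ve libraries in inflammation, and the log2 fold change was 1.18 (SE 0.17, adjusted p = 0.0125), or 2.27-fold. This was the only one of the 8 genes called between the inflamed populations, where 0.145% of all genes tested were called. The call was lost without inflamed CCR1/2+ve replicate 3 (1.21, adjusted p = 0.069), and C1qb joined it without replicate 2 (-1.52, adjusted p = 0.025) and with DESeq2 (-1.07, adjusted p = 0.0236).

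With inflammation C5ar1 differed by -0.20 in CCR2+ve (SE 0.19, adjusted p = 0.42) and by 0.55 in CCR1/2+ve monocytes (SE 0.14, adjusted p = 0.00838, under the fold cutoff), and the interaction of 0.71 was not called (SE 0.28, adjusted p = 0.28). Markers of mature neutrophils also differed between the inflamed populations. Their summed levels were 2044 to 2569 CPM in CCR1/2+ve and 1170 to 1435 CPM in CCR2+ve libraries. Most of these sums was Mmp8 (means of 1606 and 1044 CPM), which averaged 9.1 CPM in the libraries labelled inflamed CCR1. Ngp averaged 328 against 134 CPM and Lcn2 187 against 59.7 CPM. Each other gene of the list also had the higher mean in CCR1/2+ve libraries. The part of these markers in the C5ar1 difference was not tested. In CPM per kb, C5ar1 exceeded C3ar1 in both resting groups (13.6 against 1.66 in CCR2+ve and 17.9 against 0.338 in CCR1/2+ve monocytes). The order was reversed in inflamed CCR2+ve monocytes, with 20.6 for C3ar1 and 12.4 for C5ar1, and in inflamed CCR1/2+ve monocytes C5ar1 stayed ahead, at 28.5 against 17.1.

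**Figure D5:**
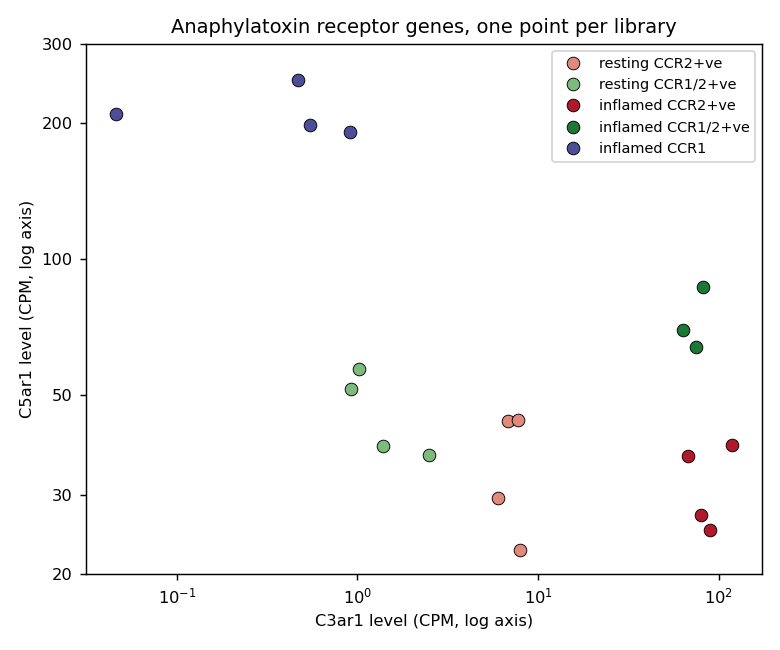
Level of C5ar1 (y axis) against C3ar1 (x axis), both in CPM on log axes, with 1 point per library and colours for the 5 groups. The groups differ mainly along C3ar1, from 0.0462 to 0.904 CPM in the libraries labelled inflamed CCR1 to 63.5 to 118 CPM in inflamed monocytes, and the inflamed CCR1/2+ve libraries lie above the inflamed CCR2+ve libraries on C5ar1.

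The 4 libraries labelled inflamed CCR1 departed from both inflamed monocyte groups in C3ar1, Cfb, Cfp and C5ar1. C3ar1 held 0.546, 0.904, 0.0462 and 0.471 CPM, which rest on 12, 20, 1 and 10 reads, with log2 fold changes of -7.46 against CCR2+ve (SE 0.38, adjusted p = 9.55e-09) and -7.20 against CCR1/2+ve monocytes (SE 0.42, adjusted p = 1.99e-06). Cfb had 2 reads in these 4 libraries together, against 1024 in the inflamed CCR2+ve and 559 in the inflamed CCR1/2+ve libraries. The ratio scaled for depth was 506 (95% interval of counting error 139.7 to 4184) and 383 (106 to 3174). Cfp held 236, 228, 259 and 304 CPM, lower by log2 fold changes of -2.68 (SE 0.11, adjusted p = 3.16e-12) and -3.06 (SE 0.10, adjusted p = 4.05e-11).

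C5ar1 went the other way, with 198, 191, 209.6 and 249 CPM, above every monocyte library. Its log2 fold changes were 2.74 against CCR2+ve (SE 0.14, adjusted p = 6.77e-11) and 1.53 against CCR1/2+ve monocytes (SE 0.13, adjusted p = 2.85e-07). C3, at 1130, 1069, 1297 and 1438 CPM, also lay above all monocyte libraries, by log2 fold changes of 0.48 (SE 0.11, adjusted p = 0.000989) and 0.41 (SE 0.11, adjusted p = 0.00959) that stayed under the cutoff. C1qb, at 5.1, 6.37, 1.99 and 6.55 CPM, was lower than in inflamed CCR2+ve monocytes (-1.40, SE 0.29, adjusted p = 0.000951). C1qa and C1qc were called in neither comparison, although C1qc passed against CCR1/2+ve monocytes without inflamed CCR1/2+ve replicate 4 (1.45, adjusted p = 0.00843) or inflamed CCR1 replicate 3 (1.03, adjusted p = 0.0435). In all, 5 of the 8 genes were called against inflamed CCR2+ve and 4 against inflamed CCR1/2+ve monocytes, beside 31.3% and 27.7% of all genes tested. The summed level of the neutrophil markers also sets these 4 libraries apart from both inflamed monocyte groups, and its part in the differences of the 8 genes was not tested.

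A wider list held 45 other genes of the pathway, of which 43 had a row, 9 had no read in any library and 23 passed the filter on low counts. The other 2, Mbl1 and Clu, are not analysed here. At rest 3 of the 23 were called, all higher in CCR1/2+ve monocytes, beside 4.25% of all genes tested, 2.34% as higher. The ficolin genes Fcna and Fcnb, which encode recognition molecules of the lectin pathway, were higher in CCR1/2+ve monocytes (log2 fold changes of 2.62 and 2.43, adjusted p of 0.000255 and 1.58e-05), with Fcnb at 289 against 56.6 CPM. Cd55, which encodes decay accelerating factor, was higher at a low level, with 53 against 3 reads in the 4 libraries of each group, and was not called without resting CCR1/2+ve replicate 2 (adjusted p = 0.0575). The median of the 23 was 0.22, against 0.03 over all genes tested.

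Of the 23, inflammation gave 6 calls in CCR2+ve cells and 8 in CCR1/2+ve cells, beside 28.6% and 28.5% of all genes tested, so both counts stood near the share over all genes. By direction they did not. In CCR2+ve cells 5 were higher and 1 lower, beside 9.37% and 19.2% of all genes tested. In CCR1/2+ve cells 6 were higher and 2 lower, beside 9.16% and 19.4%. C4b, a classical pathway component, was higher by the most in both populations. It went from 0.387 to 67.4 CPM in CCR2+ve cells (7.32, SE 0.31, adjusted p = 8.82e-11) and from 0.431 to 52.3 CPM in CCR1/2+ve cells (6.77, SE 0.29, adjusted p = 1.15e-08). C1qbp, which encodes a mitochondrial C1q binding protein, fell from 51 to 3.7 CPM (-3.85, adjusted p = 5.21e-11) and from 60.7 to 3.61 CPM (-4.20, adjusted p = 4.40e-09).

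Cd93, the gene of a surface receptor, and Itgax, the α chain of complement receptor 4, were also called higher in both populations (log2 fold changes of 1.02 and 1.61 for CCR2+ve, 1.46 and 2.31 for CCR1/2+ve cells). In CCR2+ve cells Cd93 fell under the fold cutoff without resting replicate 2 (0.95) or inflamed replicate 2 (0.94). Itgax was not called without inflamed CCR2+ve replicate 3 (1.17, adjusted p = 0.0712) and, in the other population, without inflamed CCR1/2+ve replicate 3 (2.28, adjusted p = 0.0504). C8g, the γ chain of C8, was called in CCR2+ve monocytes alone (1.40, adjusted p = 0.000718, against 0.94 with adjusted p = 0.0941 in CCR1/2+ve monocytes), and its interaction of -0.50 was not called (adjusted p = 0.731). Cd55 was called in CCR2+ve monocytes with 21 against 3 reads, and that call was lost in 4 of 8 fits that left out 1 library, without resting replicate 2 or 4 or inflamed replicate 2 or 3 (adjusted p of 0.0627, 0.0614, 0.0854 and 0.0613). In CCR1/2+ve monocytes Itgb2, the common β2 integrin chain, and C5ar2, the second C5a receptor, were called higher (1.26 and 1.53) and Fcna lower (-2.19, adjusted p = 0.000505). C1s1, a C1 protease gene, was called there with 17 reads in 3 libraries against 0 in the 4 resting ones. Itgb2 and C5ar2 gave 0.72 and 0.60 in CCR2+ve monocytes and interactions of 0.50 and 0.88 that were not called (adjusted p of 0.0878 and 0.289). In the interaction itself 1 of the 23 was called, Fcna at -3.13 (SE 0.44, adjusted p = 0.0173), beside 0.214% of all genes tested, and it was not called without inflamed CCR1/2+ve replicate 3 (adjusted p = 0.0857). Between the inflamed populations, where 0.145% of all genes were called, Fcnb alone of the 23 was called (204 against 68.2 CPM, 1.57, adjusted p = 0.000347), and C5ar2 gave 1.13 (9.67 against 4.36 CPM, adjusted p = 0.105).

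In the libraries labelled inflamed CCR1, 13 of the 23 were called against inflamed CCR2+ve and 9 against inflamed CCR1/2+ve monocytes, beside 31.3% and 27.7% of all genes tested. Fcnb reached 8780 CPM (7.01 and 5.42 on the log2 scale), C5ar2 19.6 CPM (2.17 and 1.02) and Cd55 2.11 CPM (3.11 and 3.04). C4b fell to 1.78 CPM, C1ra, a C1 protease gene, to 0.912 CPM and Itgax to 0.115 CPM, each called in both comparisons. C1s1 had 0 reads, against 17 in inflamed CCR1/2+ve and 6 in inflamed CCR2+ve libraries, and its call against the latter was lost in 8 of 8 fits that left out 1 library (adjusted p of 0.06 to 0.12). Cd59a, which encodes an inhibitor of the membrane attack complex, and Cfd, the gene of factor D, were called higher at a low level, with 44 and 24 reads in the 4 libraries. Against inflamed CCR1/2+ve monocytes, Cd59a was not called without inflamed CCR1/2+ve replicate 2 or 4 (adjusted p of 0.0588 and 0.0752), and C5ar2 fell under the fold cutoff without inflamed CCR1/2+ve replicate 3 (0.87) or inflamed CCR1 replicate 4 (0.90). Against inflamed CCR2+ve monocytes alone, Cd93 (-1.01), Fcna (-1.17) and Colec11, a collectin gene (1 against 19 reads), were called lower and Cr2, the gene of complement receptor 2 (38 against 10 reads), higher. The Cr2 call was lost in 5 of 8 fits, without inflamed CCR1 replicate 1 or 4 or inflamed CCR2+ve replicate 1, 3 or 4 (adjusted p of 0.0532 to 0.0822), and Cd93 fell under the fold cutoff without inflamed CCR1 replicate 1 (-0.92) or inflamed CCR2+ve replicate 2 (-0.93). Among genes not called in any comparison, Cr1l and Itgam exceeded 10 CPM, at group means of 106 to 139 and 91.8 to 132 CPM.

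Over the 19 libraries, the genes with levels most like each of the 8 were taken from 11176 genes with a mean of at least 1 CPM, by Pearson's r of log2 CPM across groups that themselves differ, and are given as descriptions. C1qa was most like C1qc (0.854), C1qb (0.832) and Fcna (0.822). C1qb was most like C1qa (0.832), mt-Rnr2 (0.759) and Rttn (0.742), and C1qc most like C1qa (0.854), Fcna (0.754) and Hist1h2bm (0.696). After the group means were removed, r was 0.841 between C1qa and C1qb and 0.695 between C1qa and C1qc, but 0.371 between C1qa and Fcna.

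C3 was most like Pygl (0.986), Ikbke (0.983) and Nucb1 (0.978), and these stayed at 0.941, 0.863 and 0.842 within groups. Cfb was most like Lrp1, Irf7 and Fcgr1, all at 0.987, of which Irf7, an interferon regulatory factor gene, kept 0.908 within groups. Cfp was most like Sfxn5 (0.988), Snx1 (0.985) and Ciao2a (0.984), with 0.289 to 0.446 within groups. C5ar1 was most like Clec5a (0.979), Lcn2 (0.96) and Gpd2 (0.959), and Lcn2, a neutrophil granule gene, kept 0.931 within groups. C3ar1 was most like Ifi35 (0.974), Cmklr1 (0.973) and Zfp36l1 (0.971), with 0.275 to 0.585 within groups. Lcn2 is on the neutrophil marker list and Fcgr1 on the monocyte list, and both lists differ widely between the groups.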

How the data were processed

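RNA from sorted bone marrow cells was sequenced in paired-end runs. The authors assessed reads with fastp, aligned them to GRCm38 with STAR 2.7.10a, kept uniquely aligned reads with 35 or more matched bases, and counted reads over Ensembl release 91 genes. The deposited table holds these counts without normalization for 50854 genes. Of 20 columns, 19 were mapped to samples by title and 1 was not used. The strand setting of the counts is not given in the sources used here.

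The 18652 genes averaging 1 read or more per library were tested by edgeR 4.0.16 under R 4.3.3 (TMM, two-sided robust quasi-likelihood F test, p-values adjusted by Benjamini-Hochberg across all of them). A fit held only the 2 groups compared. Calls needed an adjusted p under 0.05 together with a log2 fold change of 1 or more in size. Standard errors were taken as log2 fold change over root F. Exact two-sided permutation tests used CPM. The scripts were tested on simulated data. Alternatives were DESeq2 1.42.0, RLE factors, library sizes alone, no low-count filter, filterByExpr, all 19 libraries in 1 fit, a replicate block, no fold cutoff and leaving out each library.

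Replicate numbers were taken to pair the resting libraries, which the labels do not state. This was inferred from these data, where same-numbered libraries correlated at 0.257 to 0.472 in their deviations from the group means (4 pairs, 10147 genes) against -0.347 to 0.190 for others. The p-values of the replicate block rest on this inferred pairing. Lists and the 8 genes were chosen with earlier results of these data known, and 1 gene of the pathway list is not reported here. Genes named are the 8, other pathway genes called in any comparison or above 10 CPM in a group, and for each of the 8 the 3 genes of most similar level. Depth was 22268658 to 30502009 reads per library. A count interval covers counting error only. Positions are from GENCODE M21 and promoters from RefSeq GRCm38.p6.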

Additional observations from a re-analysis of the deposited data

Results flagged for a closer look

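In 2 of 32 groups of 4 libraries, 1 library stood apart from the other 3 by Dixon's criterion, which chance meets in about 1 of 20 groups. C1qa in inflamed CCR2+ve replicate 2 (4.23 CPM) left a gap of 0.868 of the group's range, and C1qb in resting CCR1/2+ve replicate 1 (21 CPM) a gap of 0.843. The resting C1qb call held without replicate 1, and the C1qa call in inflamed against resting CCR2+ve monocytes did not hold without replicate 2.

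The response to inflammation differed between the populations by the interaction test for 5 complement genes. The log2 differences, CCR1/2+ve minus CCR2+ve, were -3.25 for C1qa, -2.81 for C1qb, -3.12 for C1qc, 1.91 for C3ar1 and -3.13 for Fcna. Leaving out 1 library at a time, the call held in 9 of 15 fits for C1qa, 6 for C1qb, 6 for C1qc, 11 for C3ar1 and 14 for Fcna.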

How the results depend on the processing

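Of the log2 fold changes of the 8 genes in 7 tests, 424 of 448 values under settings other than leaving out a library kept their direction and their side of the cutoffs, 13 passed newly, 3 no longer passed and 8 changed sign. None of the 8 that changed sign was called. They were C3 at rest (0.04 with library sizes alone, 0.01 with filterByExpr), C1qa in inflamed CCR1 against inflamed CCR1/2+ve libraries (-0.17 with the replicate block), and in the interaction C3 (-0.03 with library sizes alone) and Cfp (0.06 with DESeq2, 0.06 with RLE factors, 0.10 with all 19 libraries and 0.01 with the replicate block). Of the 8 genes, 1 was called between the inflamed populations and 2 with DESeq2. In the interaction 4 were called, and 2 without a filter on low counts, where more genes were tested. The replicate block changed the call of Cfb at rest (adjusted p = 0.00235) and no other call of the 8 genes. Pairing by number was weaker or absent in the other comparisons. Inflamed CCR1 and inflamed CCR2+ve libraries of the same number correlated at 0.087 to 0.202, against -0.200 to 0.076 for others. Inflamed and resting CCR1/2+ve libraries of the same number correlated at 0.081 to 0.185, against -0.170 to 0.071 for others. In the remaining comparisons same-numbered pairs overlapped the others. What the numbers share there is not given by the labels.

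Leaving out 1 library changed the sign of uncalled values only, which then ran from -0.10 to 0.05 for C3 at rest, -0.04 to 0.15 for C3 between the inflamed populations, -0.07 to 0.24 for C1qc in inflamed CCR1 against inflamed CCR2+ve libraries, -0.19 to 0.30 for C1qa and -0.56 to 0.09 for C1qb in inflamed CCR1 against inflamed CCR1/2+ve libraries, and -0.03 to 0.14 for C3 and -0.08 to 0.10 for Cfp in the interaction. It gave 0 to 2 called genes between the inflamed populations, where the C5ar1 log2 fold change ran from 1.06 to 1.29, and 0 to 4 in the interaction. The number stayed within 1.5 times that of all libraries in the other 5 comparisons. Over all genes tested, calls between the inflamed populations rose from 27 to 106 with DESeq2, 53 without a filter, 53 with all 19 libraries and 80 with the replicate block. Interaction calls rose from 40 (17 higher, 23 lower) to 151 with DESeq2, 57 with RLE factors (34 higher, 23 lower), 59 without a filter, 82 with all 19 libraries and 77 with the block. Leaving out 1 library took them from 40 to between 0 (without inflamed CCR1/2+ve replicate 3) and 104 (without resting CCR2+ve replicate 2), and the 27 calls between the inflamed populations to 15 to 42. C1qa, C1qc, Cfb and C3ar1 had as few as 14, 24, 0 and 1 reads in a library, which limits their precision. The causes were not tested.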
